A study of Homo sapiens with 4 samples.

Results

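Axon guidance receptors and ligands were examined in SH-SY5Y cells, a human neuroblastoma line of sympathetic neuroblast character, after silencing of TSPAN8, a tetraspanin of the cell surface. The members were the probe sets annotated to a single gene of the Eph receptor, ephrin, semaphorin, plexin, neuropilin, Slit, Robo, netrin, netrin-G, UNC5 or DCC families. There were 175 such probe sets for 70 genes, out of 54613 probe sets tested, and each value is a log2 signal per probe set and array. Both groups were SH-SY5Y cells kept in serum-containing medium and collected 72 h after the treatment of their group. In the knockdown group this was RNA interference with a self-delivering small interfering RNA system. The TSPAN8 knockdown group and the transfection control group had 2 samples each, 1 array per sample. What the control cells received beyond being named a transfection control, and the sequence of the small interfering RNA, are not given in the sources used here. The labels do not state whether replicates were grown as separate cultures, and the p-values therefore rest on a spread that may be technical only.

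These families are the main extracellular cues that steer growing axons and migrating neural crest cells. Ephrins are anchored in one cell's membrane and bind Eph receptor tyrosine kinases on the next, mostly with repulsion, and signals can run in both cells. Semaphorins act through plexins, and the secreted ones usually need a neuropilin as co-receptor. Secreted Slits repel through Robo receptors. Netrins attract through DCC and repel when UNC5 receptors take part. Sympathetic neurons and their precursors are known targets of secreted semaphorins.

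TSPAN8 itself was the check of the labels. It read 6.25 and 6.35 after knockdown and 7.52 and 7.62 in control cells, a difference of -1.27 ± 0.062 (SE; limma, adjusted p = 0.0026). It was the only probe set in the series to pass an adjusted p of 0.05. Array medians lay between 6.58 and 6.61. Scanner detection calls were not used here, so low signal was judged against 107 probe sets of olfactory receptor genes, whose control means had a 95th percentile of 6.53. A probe set with a control mean under this value is called low signal below, and even large changes of its transcript may not be visible. Both TSPAN8 readings after knockdown lay under this value, so the difference of -1.27 may understate the loss of its transcript. Of 14 measured sympathetic neuroblast markers, 13 lay above that value and TH, the catecholamine-synthesising enzyme, did not. Of these 14, 11 were below control, where 44.3% of all genes were above control. At an unadjusted p under 0.05, 3 were lower (CHGA, DBH and CHGB, at -0.29, -0.35 and -0.20), against 5.57% of all genes. The summed signal of the list was 45903 and 46145 after knockdown and 48201 and 48941 in control cells. Of 13 measured blood, endothelial and epithelial markers, 6 lay above it. Of 7 Schwann cell and melanocyte markers 4 lay above it. A mean above control was seen for 6 of the 7, against 44.3% of all genes, and 0 had an unadjusted p under 0.05. The summed signal of the 7 was 795 and 797 after knockdown and 782 and 765 in control cells.

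No guidance probe set passed over all probe sets (limma, 0 of 175 at an adjusted p under 0.05, against 0.00183% of all probe sets). The smallest adjusted p among members was 0.60. At an unadjusted p under 0.05, 6 members were above control (3.43%, against 3.72% of all probe sets) and 7 were below (4%, against 4.12%). Both shares were near the background, and with each array centred on its median the counts were 5 above (2.86%, against 2.65% of all probe sets) and 11 below (6.29%, against 5.76%). The knockdown arrays lay wholly above the control arrays for 40 members (background 17.7%) and wholly below for 36 (background 19.8%), together 43.4% of members against 37.5% of all probe sets. The median member differed by 0.0087 (-0.0051 after median centring), and the median of all probe sets was 0 (-0.014 after median centring). Centring moves every difference by the same amount. Arrays of different groups were about as alike as arrays of 1 group: the median absolute difference over members was 0.063 between the knockdown arrays, 0.061 between the control arrays and 0.062 to 0.074 across groups. Of the 175 members 97 were above control, 76 below and 2 level. All 175 had a 95% confidence interval inside a log2 change of 1 in either direction. For 174 of them it also lay inside 0.58, about 1.5-fold, the exception being a SEMA3A probe set. These intervals are per probe set and rest on 2 arrays a group. For the 90 members of low signal they bound the signal and not the transcript, so they exclude no size of change there.

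**Figure D1:**
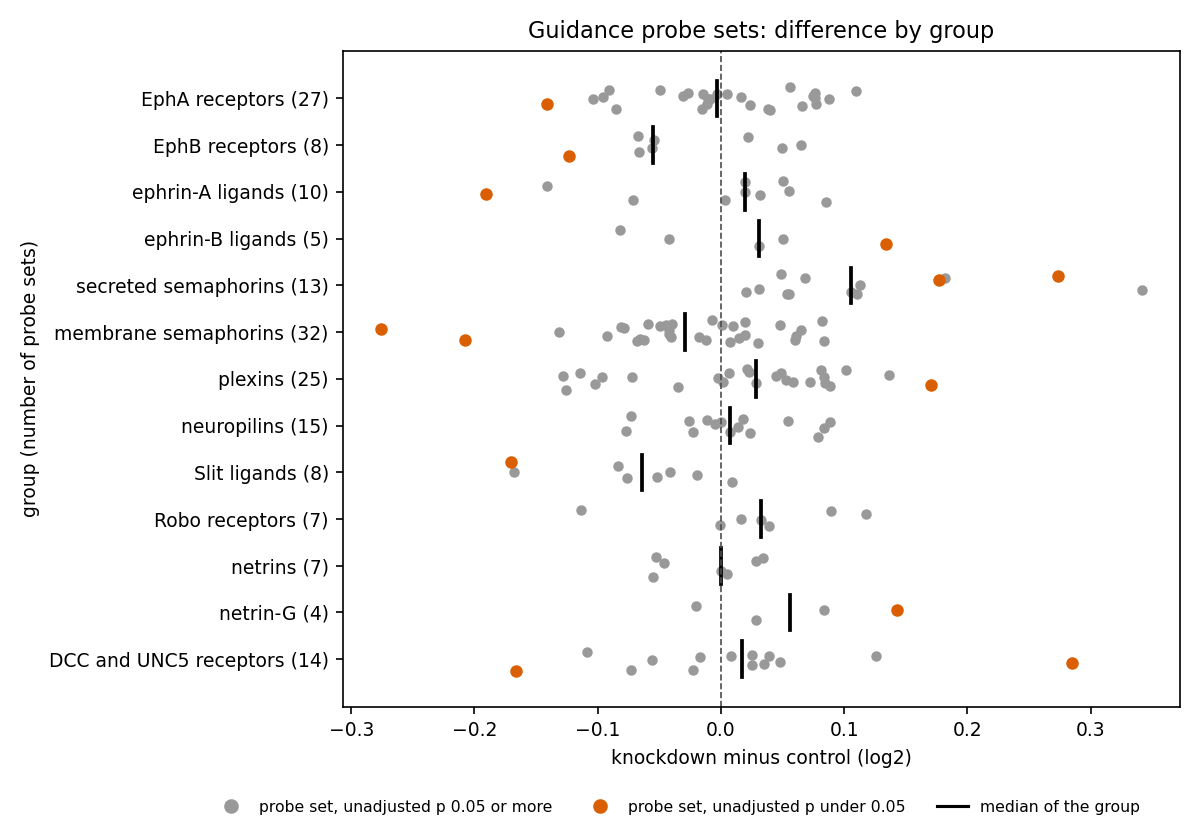
Knockdown minus control (log2) for the 175 guidance probe sets, 1 point each, by family, with the number of probe sets in brackets and a black bar at each group's median. Orange points have an unadjusted p under 0.05 (limma). The secreted semaphorin points are all right of 0, with a median of 0.11, and 7 of the 8 Slit points are left of it.

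Among the secreted class 3 semaphorins, all 13 probe sets of 7 genes had a mean above control, with a median difference of 0.11 and a range of 0.020 to 0.34. None passed over all probe sets (limma, smallest adjusted p = 0.60), and 2 had an unadjusted p under 0.05 (background 3.72% higher). The knockdown arrays lay wholly above the control arrays for 6 of the 13 (background 17.7%) and wholly below for 0 (background 19.8%). Over all probe sets 49.8% had a mean above control, and among those at or below the median signal 56.4%. This group was singled out after its values were seen, and probe sets of 1 gene share a transcript.

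SEMA3C, a secreted semaphorin best known from the cardiac neural crest, had a bright and a moderate probe set. The moderate one (203788_s_at) read 9.68 and 9.50 after knockdown and 9.26 and 9.36 in control cells. Both knockdown arrays were above both controls, knockdown replicate 1 by more, and the difference was 0.27 ± 0.073 (SE; limma, adjusted p = 0.60). It was 0.18 without knockdown replicate 1. The bright one (203789_s_at) read 12.42 and 12.33 against 12.28 and 12.33, where the groups overlapped and the difference was 0.068 ± 0.057 (SE). SEMA3F, a repellent that signals mainly through NRP2, read 6.97 and 6.997 after knockdown and 6.82 and 6.79 in control cells at 209730_at. The groups did not overlap, and the difference was 0.18 ± 0.052 (SE; limma, adjusted p = 0.60). Its other 2 probe sets were at 0.11 and 0.049.

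SEMA3A, the collapsing factor of sensory and sympathetic growth cones, had the largest difference of any member but a wide error. At 206805_at it read 8.46 and 7.83 after knockdown and 7.73 and 7.88 in control cells. Knockdown replicate 1 stood above the other 3 arrays, and knockdown replicate 2 lay between the controls. The difference of 0.34 ± 0.17 (SE; limma, adjusted p = 0.67) was 0.025 without knockdown replicate 1 and 0.66 without knockdown replicate 2. The other 2 SEMA3A probe sets also read higher on knockdown replicate 1, at 7.12 against 6.86 to 6.93 on the other arrays for 244163_at, and at 6.61 against 6.27 to 6.35 for 244849_at. The probe sets of SEMA3B, SEMA3D, SEMA3E and SEMA3G were low signal, at differences of 0.020 to 0.11.

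The median deviation of the 13 probe sets from their control means was 0.13 for knockdown replicate 1 and 0.060 for knockdown replicate 2. For the controls it was 0.016 and -0.016, equal and opposite by construction because the mean is that of the 2 control arrays. The 0.060 for knockdown replicate 2 is by definition also the median difference without knockdown replicate 1, with 12 of 13 above control. Without control replicate 2 the median difference was 0.097, with 11 of 13 above. Mesenchymal and fibroblast markers also read highest on knockdown replicate 1. Of 17 measured, 14 were above control, against 44.3% of all genes, and 8 lay wholly above, against 17.7% of all probe sets. At an unadjusted p under 0.05, 3 were higher (CCN1, COL3A1 and SPARC, against 2.39% of all genes) and 0 lower (against 5.57%). The summed signal of the 17 was 19448 and 16820 for knockdown replicates 1 and 2 and 16718 and 16012 for the controls. COL1A2, CCN2 and PRRX1 of that list were low signal. The part of these markers in the semaphorin values was not tested. In a bulk sample a shift in the cells that express a gene and a shift in RNA per cell cannot be told apart.

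**Figure D2:**
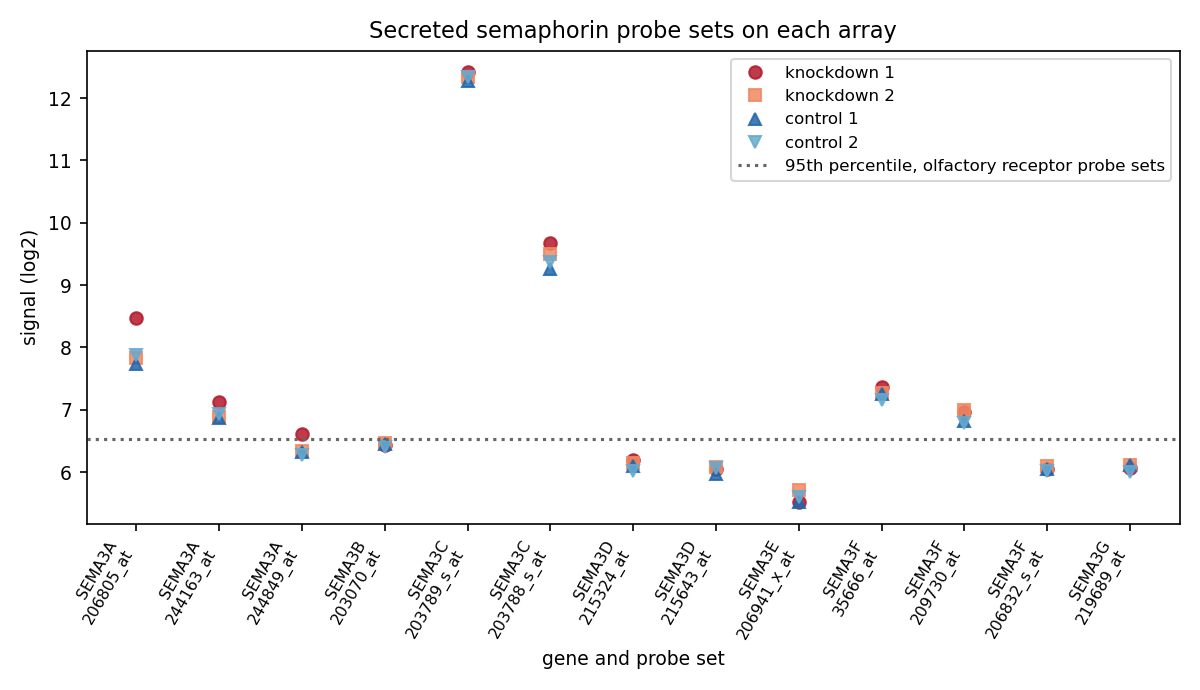
Signal (log2) of the 13 secreted semaphorin probe sets on the 4 arrays, knockdown in red and orange and control in blue, with a dotted line at 6.53, the 95th percentile of olfactory receptor probe sets. SEMA3A stands apart on knockdown replicate 1 (8.46 at 206805_at), and the control means of 7 of the 13 probe sets lie under the line.

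The upstream sequences of 3 secreted ligands are shown because every probe set of each gene lay on the same side of control and 1 had an unadjusted p under 0.05: SEMA3C and SEMA3F above, SLIT3 below. Each is the 250 bases before the most upstream start in the RefSeq promoter table (GRCh38.p14), 5′ to 3′ on the gene's strand. Capitals mark matches, on either strand, to the TATA box TATAAA, the GC box GGGCGG, the CCAAT box CCAAT or the E-box CACGTG, and overlapping GC boxes run together.
SEMA3C, chr7:80922390-80922639, minus strand: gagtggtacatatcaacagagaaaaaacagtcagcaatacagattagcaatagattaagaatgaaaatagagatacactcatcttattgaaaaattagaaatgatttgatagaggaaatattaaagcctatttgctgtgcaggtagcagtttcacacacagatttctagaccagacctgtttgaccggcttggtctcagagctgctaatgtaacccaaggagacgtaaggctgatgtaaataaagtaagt
SEMA3F, chr3:50154808-50155057, plus strand: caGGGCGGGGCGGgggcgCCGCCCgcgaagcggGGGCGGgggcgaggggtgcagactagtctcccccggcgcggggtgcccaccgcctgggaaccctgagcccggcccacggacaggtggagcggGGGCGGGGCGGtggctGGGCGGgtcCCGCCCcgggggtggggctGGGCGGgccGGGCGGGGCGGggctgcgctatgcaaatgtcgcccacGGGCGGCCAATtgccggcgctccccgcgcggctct
SLIT3, chr5:169301140-169301389, minus strand: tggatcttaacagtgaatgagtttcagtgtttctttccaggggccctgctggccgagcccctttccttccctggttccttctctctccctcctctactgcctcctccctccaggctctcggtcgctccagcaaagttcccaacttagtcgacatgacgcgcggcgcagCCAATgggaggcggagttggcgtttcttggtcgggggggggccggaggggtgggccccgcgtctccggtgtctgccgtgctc
The SEMA3C window held 36.4% G and C and none of the 4 motifs. The SEMA3F window held 82.0%, 12 GC boxes and 1 CCAAT box, and the SLIT3 window 62.8% and 1 CCAAT box. A GC box was present in 42.2% of 27305 genes' windows of this length and a CCAAT box in 33.0%. SEMA3C and SEMA3F, both above control, thus had unlike upstream sequence. A match is a run of letters and no bound site.

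SLIT3, a secreted repellent, was below control at all 3 of its probe sets. At 203813_s_at it read 8.75 and 8.91 after knockdown and 9.03 and 8.97 in control cells. The groups did not overlap, and knockdown replicate 1 was the lower array, at a difference of -0.17 ± 0.066 (SE; limma, adjusted p = 0.62). At 203812_at it read 8.40 and 8.63 against 8.67 and 8.70, a difference of -0.17 ± 0.078 (SE). Without knockdown replicate 1 the first of these differences was -0.092 and without knockdown replicate 2 it was -0.25. The Slit probe sets as a group had a median of -0.064, with 7 of 8 below control, and their median deviation was -0.11 for knockdown replicate 1 and -0.030 for knockdown replicate 2. Each is by definition also the median difference with the other knockdown array left out. Without control replicate 2 the median was -0.031. SLIT1 differed by -0.077 at its brighter probe set and SLIT2 by 0.0087.

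The Robo receptors, which bind Slits, had a median of 0.033, with 5 of 7 probe sets above control. ROBO1 read 10.67 and 10.67 after knockdown and 10.77 and 10.80 in control cells. The arrays of each group lay close together without overlap, and the difference was -0.11 ± 0.051 (SE; limma, adjusted p = 0.64). ROBO2, ROBO3 and ROBO4 differed by 0.016, -0.00058 and 0.033 at their brightest probe sets. The Robo median was 0.093 without knockdown replicate 1 and -0.035 without knockdown replicate 2, so its sign rested on that array. After median centring the Robo median was 0.019, beside -0.014 for all probe sets.

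Membrane-bound semaphorins had a median of -0.029, with 19 of 32 probe sets below control and 13 above. It was -0.0028 without knockdown replicate 1 and -0.014 without control replicate 1. SEMA6D, a transmembrane semaphorin that binds class A plexins, read 8.47 and 8.71 after knockdown and 8.82 and 8.91 in control cells at 226492_at. Both knockdown arrays were below both controls, replicate 1 by more, and the difference was -0.28 ± 0.082 (SE; limma, adjusted p = 0.60). It was -0.16 without knockdown replicate 1 and -0.39 without knockdown replicate 2. The other 4 SEMA6D probe sets ranged from -0.079 to 0.065. SEMA5B, a transmembrane semaphorin with thrombospondin repeats, had 1 probe set, which read 9.46 and 9.56 after knockdown and 9.75 and 9.69 in control cells. The groups did not overlap, and the difference was -0.21 ± 0.058 (SE; limma, adjusted p = 0.60). SEMA4C, a bright member and a ligand of plexin B receptors, differed by 0.00095 ± 0.051 (SE) at a control level of 10.35. SEMA4A, SEMA4B, SEMA4D, SEMA4F, SEMA4G, SEMA5A, SEMA6A, SEMA6B, SEMA6C and SEMA7A had no probe set with an unadjusted p under 0.05.

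The plexins had a median of 0.029, with 17 of 25 probe sets above control, but it was -0.0081 without knockdown replicate 2. After median centring the plexin median was 0.015, beside -0.014 for all probe sets. PLXNC1, the receptor of SEMA7A, was above control at all 4 of its probe sets. At 213241_at it read 7.53 and 7.42 after knockdown and 7.33 and 7.27 in control cells, without overlap, a difference of 0.17 ± 0.059 (SE; limma, adjusted p = 0.61). PLXNA2 and PLXNA1, receptors that pair with neuropilins, had control means of 9.07 and 8.99 at their brightest probe sets and differed by -0.13 ± 0.069 and -0.072 ± 0.068 (SE). The other 2 PLXNA1 probe sets lay on the opposite side, at 0.10 and 0.072 without overlap. PLXNB1, the SEMA4D receptor, was at -0.13 and PLXNB2 at -0.11 at their brightest probe sets, and PLXNA3, PLXNA4, PLXNB3 and PLXND1 at -0.096, 0.088, 0.048 and 0.084. All 15 probe sets of the neuropilins NRP1 and NRP2 were low signal, with control means from 5.64 to 6.48 and differences from -0.077 to 0.088. At its brightest probe set NRP1 read 6.67 and 6.46 after knockdown and 6.50 and 6.46 in control cells. Its difference was 0.084 ± 0.074 (SE), and the groups overlapped.

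**Figure D3:**
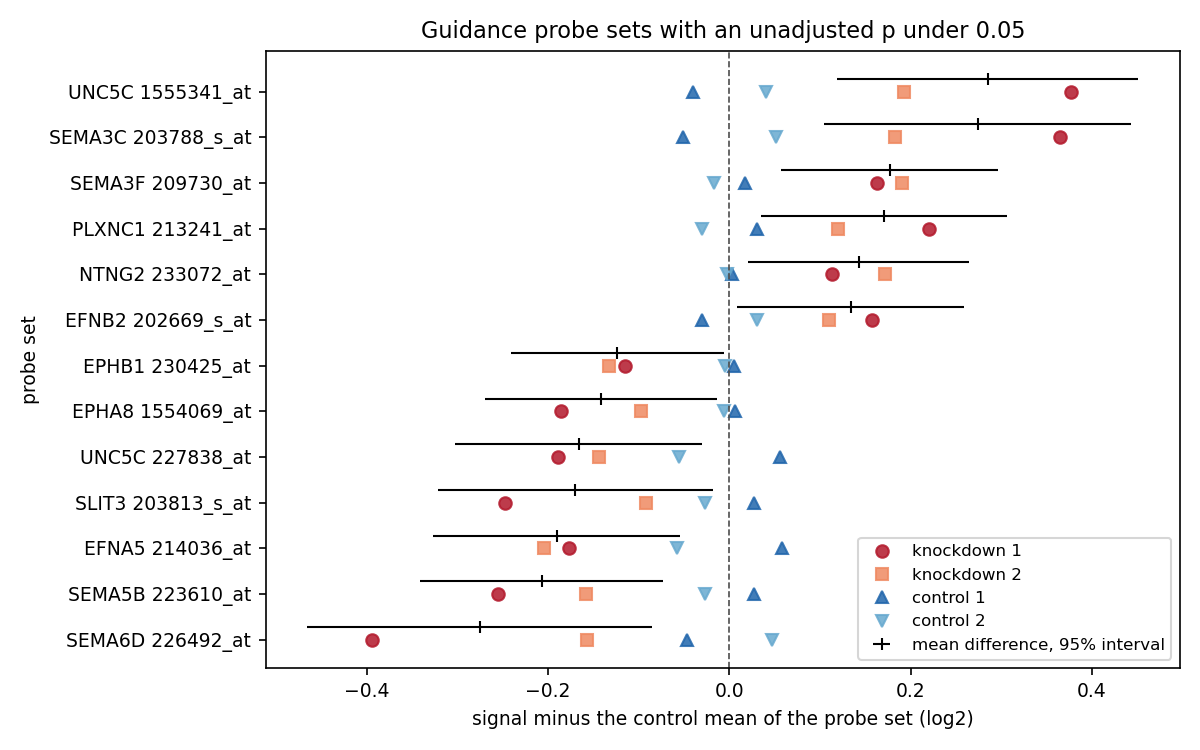
Signal minus the control mean (log2) on each array for the 13 guidance probe sets with an unadjusted p under 0.05, with the mean difference and its 95% interval (limma) as a black bar. The 13 were picked by p and their groups do not overlap, against 43.4% of members and 37.5% of all probe sets without overlap. UNC5C appears on both sides, at 0.28 and -0.17.

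Ephrins and their receptors showed small differences. EFNA5, a GPI-anchored ephrin, was below control at 3 of its 4 probe sets. At 214036_at it read 9.27 and 9.24 after knockdown and 9.50 and 9.39 in control cells, with no overlap and a difference of -0.19 ± 0.059 (SE; limma, adjusted p = 0.60). The brightest EFNA5 probe set (227955_s_at) read 10.24 and 10.18 against 10.29 and 10.28, a difference of -0.072 ± 0.053 (SE), and the remaining one, of low signal, was at 0.0030. EFNB2, a transmembrane ephrin and ligand of EphB receptors and EPHA4, was above control at both probe sets. It read 8.65 and 8.60 after knockdown and 8.46 and 8.52 in control cells at 202669_s_at, without overlap, a difference of 0.13 ± 0.054 (SE; limma, adjusted p = 0.63). Its brighter probe set, at a control mean of 10.82, differed by 0.050 ± 0.065 (SE). EFNB3 read 8.79 and 8.78 against 8.85 and 8.89, a difference of -0.082 ± 0.051 (SE). EFNA1, EFNA2, EFNA3 and EFNA4 were between 0.019 and 0.085 at their brightest probe sets, EFNA2 at a control mean of 10.14, and EFNB1 was at -0.042.

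Of 27 EphA probe sets 13 were above control and 14 below, and 4 of the 27 exceeded the low signal value. EPHA8 read 7.10 and 7.19 after knockdown and 7.29 and 7.28 in control cells at 1554069_at. The groups did not overlap, and the difference was -0.14 ± 0.055 (SE; limma, adjusted p = 0.63), with -0.010 at its second probe set. EPHA2, the EphA receptor of many epithelial and tumour cells, differed by 0.066 at a control mean of 7.44. The probe sets of EPHA1, EPHA3, EPHA4, EPHA5, EPHA6 and EPHA7 were all low signal, and EPHA10 had 1 of 3 above that value.

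The EphB receptors had a median of -0.055 over 8 probe sets, of which 5 were below control, and of -0.026 without control replicate 1. EPHB4, which binds EFNB2, had control means of 8.73 and 7.28 and differed by -0.056 and -0.067. EPHB3 read 7.37 and 7.36 after knockdown and 7.33 and 7.27 in control cells, a difference of 0.065 ± 0.053 (SE) that was 0.032 without control replicate 2. Its other probe set (1438_at) was at -0.068, also without overlap. EPHB1 read 5.67 and 5.65 against 5.79 and 5.78 at 230425_at, a difference of -0.12 ± 0.051 (SE; limma, adjusted p = 0.63) in the low signal range, with -0.055 and 0.022 at its other 2 probe sets. EPHB6, a kinase-dead member, differed by 0.050 and was low signal. The arrays of the groups did not overlap for 7 of the 8 EphB probe sets, against 37.5% of all probe sets. Knockdown was higher in 2 of these (background 17.7%) and lower in 5 (background 19.8%), with EPHB3 on both sides. Of the 8 probe sets 4 exceeded the low signal value, and EphB was 1 of 13 families looked at.

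Netrin receptors were read by 14 probe sets with a median of 0.017. With 1 array left out the median ranged from 0.00090 (without control replicate 2) to 0.039 (without control replicate 1). After median centring it was 0.0030, beside -0.014 for all probe sets. UNC5C, a repellent netrin receptor, gave values on both sides of control. Its brightest probe set (227838_at) read 11.04 and 11.08 after knockdown and 11.28 and 11.17 in control cells, without overlap, a difference of -0.17 ± 0.059 (SE; limma, adjusted p = 0.61) that was -0.11 without control replicate 1. A low signal probe set (1555341_at) read 6.33 and 6.15 against 5.91 and 5.99, a difference of 0.28 ± 0.072 (SE; limma, adjusted p = 0.60), and another, at a control mean of 10.16, differed by 0.025 ± 0.051 (SE). UNC5B, another repellent receptor, was below control at all 3 of its probe sets, with -0.017 ± 0.068 (SE) at the brightest (control mean 11.38). DCC, the attractive receptor, differed by -0.023 at its brightest probe set, UNC5A by -0.056 and UNC5D by 0.0084.

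The 7 netrin probe sets, for NTN1, NTN3, NTN4 and NTN5, had a median of 0 (-0.035 to -0.020 with 1 array left out) and overlapping groups throughout. NTN1, the netrin of the floor plate, read 6.47 and 6.54 after knockdown and 6.59 and 6.54 in control cells at its brightest probe set. NTNG2, a GPI-anchored netrin relative, read 6.37 and 6.43 after knockdown and 6.26 and 6.25 in control cells. It was low signal, and the groups did not overlap at a difference of 0.14 ± 0.053 (SE; limma, adjusted p = 0.61). NTNG1 differed by 0.084 at its brightest probe set.

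The members were also split by signal. Of 85 members above the low signal value 40 were above control, and of 90 low signal members 57 were. Over all probe sets 43.2% of those above the median signal and 56.4% of those at or below it were above control. Of 51 genes with several probe sets, 22 had all of them on the same side of control, and the share over all genes was not computed. Those with 1 or more at an unadjusted p under 0.05 among these 22 were EFNB2, PLXNC1, SEMA3C and SEMA3F above and EPHA8 and SLIT3 below. With 1 probe set a gene (the brightest), the median over 70 genes was 0.00047, with 35 above control and 34 below.

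**Figure D4:**
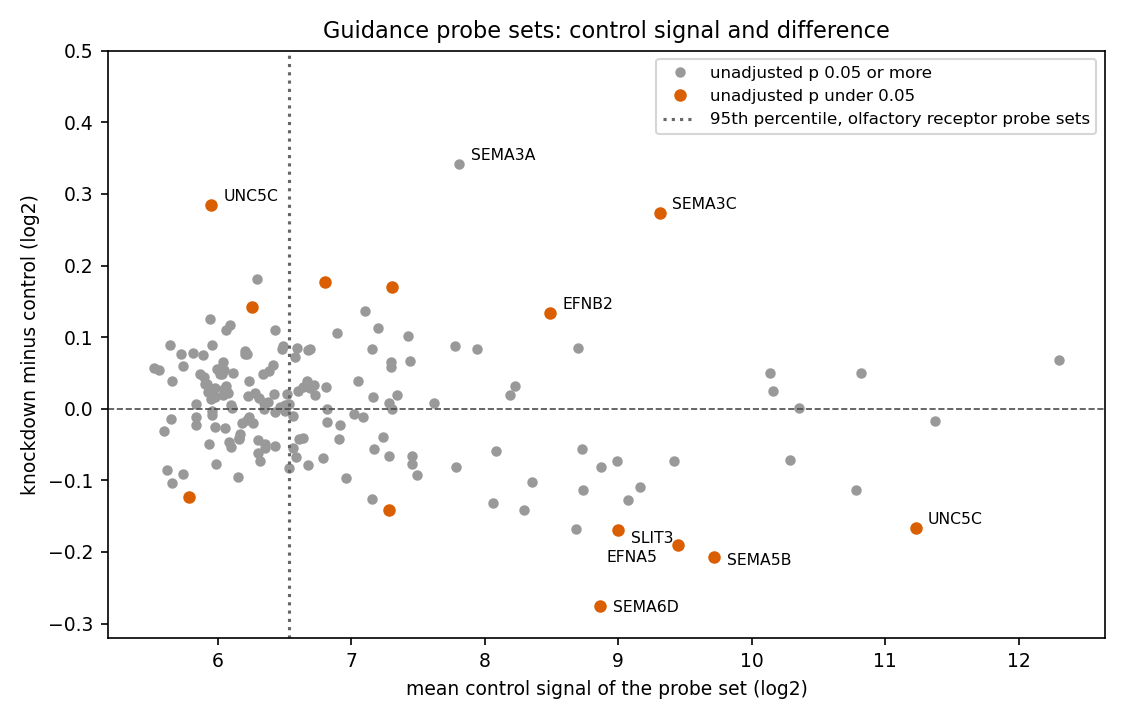
Knockdown minus control against mean control signal (both log2) for the 175 guidance probe sets, with the dotted line at 6.53, the 95th percentile of olfactory receptor probe sets. Orange points have an unadjusted p under 0.05 (limma), and the UNC5C pair lies at -0.17 on the bright side and 0.28 on the low signal side.

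Other genes of axon guidance, among them further ligands, adaptors, GTPase regulators and cytoskeletal effectors, were mostly below control. At 1 probe set a gene, 59 of 77 measured genes were below control with a median of -0.041 (-0.0094 over all genes), and 0 passed over all probe sets (limma, adjusted p under 0.05, against 0.00183% of all probe sets). At an unadjusted p under 0.05 there were 12 lower (15.6%) and 0 higher. Over all 19775 genes the shares were 5.57% lower and 2.39% higher, and 44.3% were above control. Without control replicate 1 the 12 became 5 lower (6.49%, against 3.27% of all genes) and 1 higher, and without knockdown replicate 1 they became 8 (10.4%, against 4.37%) and 0. Stress response genes were below control in 14 of 14 cases, where 44.3% of all genes were above control. They had a median of -0.21, with 7 of 14 lower at an unadjusted p under 0.05, against 5.57% of all genes. Their median deviation was -0.33 for knockdown replicate 1, -0.10 for knockdown replicate 2, and -0.12 and 0.12 for the controls. The control values are again equal and opposite by construction. Their summed signal was 26353 and 30346 after knockdown and 29452 and 34905 in control cells. Neuroblast markers were below control in 11 of 14 cases, as given above. The part of these lists in the pathway values was not tested.

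FLRT3, a membrane protein that binds UNC5 receptors, read 10.59 and 10.57 after knockdown and 10.88 and 10.80 in control cells. Its difference was -0.26 ± 0.055 (SE; limma, adjusted p = 0.58), with -0.19 at its second probe set. MICAL1, an actin-oxidising enzyme that acts below plexins, read 8.28 and 8.44 against 8.63 and 8.63, a difference of -0.27 ± 0.064 (SE; limma, adjusted p = 0.58). FYN, a Src family kinase used by several guidance receptors, read 9.67 and 9.77 against 9.94 and 9.97, a difference of -0.24 ± 0.056 (SE), and 2 of its other 4 probe sets were above control. RGMB, a ligand of neogenin, read 8.51 and 8.65 against 8.79 and 8.80, a difference of -0.21 ± 0.062 (SE). These 4 genes were picked for the smallest p, and their groups did not overlap. Over the 77 genes the groups did not overlap for 39.0%, against 37.5% of all probe sets. The split was uneven: knockdown was lower in 28 of the 77 (background 19.8%) and higher in 2 (background 17.7%). None of the 4 passed.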

How the data were processed

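Total RNA of 4 SH-SY5Y samples was profiled on oligonucleotide arrays. The deposited values are log2 signals per probe set, computed by the authors. The submitters' processing notes name RMA (background subtraction, equalised distributions and 1 summary value per probe set) and the software R 3.0.1, without settings. Gene names came from the platform annotation: of 54613 probe sets (62 AFFX controls left out), 41091 had 1 gene, and 1 further probe set that lists a guidance gene beside another was not used. Groups were compared with limma 3.58.1 (lmFit and eBayes, R 4.3.3, no covariates, two-sided) on all probe sets, with Benjamini-Hochberg adjustment over all of them. The number of arrays limits the precision. A gene's representative is its probe set with the highest mean. Per-array values are given for members with an unadjusted p under 0.05 and for the gene with the smallest p of each family. For other genes of the pathway, the 4 with the smallest p are named. The members, families and lists were chosen with earlier results of these data known. The low signal value and the split by signal were added after the data were seen. Figures were drawn with matplotlib 3.10.9.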

Additional observations from a re-analysis of the deposited data

How the results depend on the processing

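The alternatives were a second quantile normalization, median centring, a filter on dim probe sets, a trended robust variance, a block for the replicate number, leaving out the probe sets marked x_at or s_at, which may match more than 1 transcript, 1 probe set a gene or the mean of a gene's probe sets, and each array left out. Median centring gave 11 members below control at an unadjusted p under 0.05 (7 as reported) and turned the members' median to -0.0051, beside -0.014 for all probe sets. The replicate numbers are not said to pair samples (r = 0.051 for the deviations of equal numbers, across probe sets), and with them as a block TSPAN8 was at -1.27 with an adjusted p of 0.16, 0 members passed, and 5 members were higher and 5 lower at an unadjusted p under 0.05 (background 3.09% and 3.58%). With 1 array left out, TSPAN8 ranged from -1.32 to -1.22, the members past the threshold from 0 to 6, members lower from 2 to 13 (background 2.55% to 6.30%) and higher from 3 to 15 (background 2.47% to 6.09%) at an unadjusted p under 0.05, the members' median from 0.0034 to 0.016, and the other pathway genes past the threshold from 0 to 5. Calls among members arose without knockdown replicate 2, in a fit that assumes the lone knockdown array to vary like the controls: SEMA3A (2 probe sets), SEMA3C and UNC5C above and SEMA6D and SLIT3 below, where 1.88% of all probe sets passed. The lower counts were 2 without control replicate 1 and 4 without knockdown replicate 1, and the higher count was 3 without control replicate 2. The highest counts past the threshold, among 175 members and 77 other pathway genes, both came without knockdown replicate 2. Both have the same background, 1.88% of all probe sets. With 1 knockdown array the spread of that group is unknown, so these counts decide nothing. NRP1, which ranged from -0.021 to 0.19 with 1 array left out, turned below control without knockdown replicate 1. The cause was not tested.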

Other observations

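Of the 70 guidance genes, 59 had a window in the RefSeq promoter table (GRCh38.p14; 250 bases before the most upstream start). A GC box (GGGCGG, either strand) was present in 43 of the 59 (72.9%), against 42.2% of 27305 genes of all kinds, and the median share of G and C was 65.2% against 57.6%. A TATA box (TATAAA) was present in 1 of the 59 against 11.2%, a CCAAT box in 20 (33.9%) against 33.0%, and an E-box (CACGTG) in 4 (6.78%) against 6.46%. The windows of the 6 class 3 semaphorins in the table held a GC box in 3 cases. These are counts of letters, not of bound sites.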
